A study of Drosophila melanogaster with 12 samples.

Results

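A set of 10 genes of Drosophila melanogaster that make, package, take up or break down dopamine were followed through fly heads carrying 1 of 4 neuronal hairpin RNAs. They were ple, Ddc, Pu, Catsup, Vmat, DAT, b, e, t and speck, taken from a raw count table by their symbols. All 10 had a row among the 23793 rows of that table, and all 10 were among the 12661 rows with enough counts to be tested. Messenger RNA was sequenced in 12 libraries, 3 for each of 4 groups, from whole heads of male flies aged 3 days, with 50 heads in each replicate. The pan-neuronal nSyb driver expressed the hairpin (IR, inverted repeat) in every group, so all groups shared the driver and a hairpin load. The genotypes were nSyb>dYEATS2 IR (dYEATS2-IR) with its control nSyb>mCherry IR (NTC IR-1), while dENL/AF9-IR stands for nSyb>dENL/AF9 IR, with nSyb>Luciferase IR (NTC IR-2) as its control. mCherry and Luciferase are not fly genes. dYEATS2 and dENL/AF9 encode YEATS-domain proteins, a family that binds acylated histones. The hairpins were driven in neurons, whereas a head also holds glia, cuticle, muscle and fat body that do not use this driver.

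Dopamine is made from tyrosine by tyrosine hydroxylase and then Dopa decarboxylase, with a pterin cofactor that is needed for the hydroxylation. In neurons it is loaded into synaptic vesicles and taken back up at the surface membrane, while in the insect it is also joined to beta-alanine or acetylated. The same chemistry hardens and colours cuticle, and the beta-alanine enzymes also recycle histamine, the transmitter of fly photoreceptors. A level measured in a whole head therefore mixes neuronal, glial, photoreceptor and cuticular transcripts.

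The synthesis genes were ple (tyrosine hydroxylase, FBgn0005626), at 3L:6713356-6719525 on the minus strand, Ddc (Dopa decarboxylase, FBgn0000422), at 2L:19116483-19120306 on the minus strand, and Pu (GTP cyclohydrolase, which starts synthesis of the cofactor, FBgn0003162), at 2R:21175315-21182608 on the plus strand. Catsup (FBgn0002022), at 2L:19041862-19043614 on the plus strand, encodes a zinc transporter family protein that in Drosophila restrains tyrosine hydroxylase. The transporters were Vmat (the vesicular monoamine transporter, FBgn0260964), at 2R:13513132-13534251 on the minus strand, and DAT (the plasma membrane dopamine transporter, FBgn0034136), at 2R:16558567-16565238 on the minus strand. Of the turnover genes, b (black, aspartate decarboxylase, which supplies beta-alanine, FBgn0000153) lies at 2L:13821248-13823979 on the plus strand and e (ebony, which joins beta-alanine to dopamine or histamine, FBgn0000527) at 3R:21229839-21237177 on the minus strand. The t gene (tan, which splits those conjugates again, FBgn0086367) lies at X:9217655-9223257 on the minus strand, and speck (an arylalkylamine N-acetyltransferase, FBgn0287831) at 2R:24139563-24157762 on the plus strand. Coordinates are those of the annotation BDGP6.54, and all 10 genes are protein-coding. Exons of 4 of the 10 overlap exons of a gene on the other strand, which takes in 3.15% of the exonic length of Ddc, 4.71% of Catsup, 5.03% of speck and 26.2% of Vmat. The gene opposite Vmat, CG13330, had only 1 to 7 counts per library. How strand was used in counting is not given in the sources used here, so the counts of these 4 carry that uncertainty.

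Group names need a caution before any result. The deposited normalized table holds the same counts as the raw table under other group names, exchanged as whole groups, and the naming that holds was not established here. The names of the count table are used here, so every direction belongs to libraries labelled that way. Titles of the dENL/AF9-IR libraries and of NTC IR-2 also carry the word young, although all 12 libraries have the same labelled age, and no batch or date is labelled. Neither target was detectably lower in its own knockdown in whole heads by these names: D12 (dYEATS2) changed by -0.03 (log2, FDR 0.919) in the libraries labelled dYEATS2-IR against NTC IR-1, and ear (dENL/AF9) by -0.05 (FDR 1) in those labelled dENL/AF9-IR against NTC IR-2. However, ear was called between the controls, 0.39 higher in NTC IR-2 than in NTC IR-1 (FDR 0.0401), where 10.3% of all rows were called higher. It had 34.99 to 49.7 CPM in the other 9 libraries, against 30.8 to 33.1 CPM in NTC IR-1, and the normalized table names precisely these NTC IR-1 libraries dENL/AF9-IR. By that naming their control is the libraries here called dYEATS2-IR. In those, ear was 0.23 higher than in NTC IR-1 and was not called (FDR 0.281). The share of all rows that set NTC IR-1 apart from the other 9 libraries was not counted. Yolk protein genes, which are expressed mainly in females, set the NTC IR-1 libraries apart although all 12 libraries are labelled male. Yp1 reached at most 0.488 CPM in the other 9 libraries, against 587 to 843 CPM in NTC IR-1, Yp2 at most 1.12 CPM, against 216 to 366 CPM, and Yp3 at most 34.7 CPM, against 451 to 674 CPM. The part of this difference in the comparisons with NTC IR-1 was not tested, and the comparisons of dYEATS2-IR or dENL/AF9-IR with NTC IR-2 and with each other do not use those libraries as a group. Total counts ranged from 30298251 to 54132559 per library, mitochondrial rows took 17.5%, 20.03% and 17.0% of them in dYEATS2-IR and 23.5% to 35.7% in the other 9 libraries, and the members had between 403 and 39550 counts in a library. Levels are given as CPM, the count scaled to the library's TMM-corrected total. Tests are edgeR's quasi-likelihood F test with Benjamini-Hochberg adjustment over all tested rows (FDR), a call is an FDR below 0.05, and log2 fold changes are of the group named first over the group named second. Nothing in the labels says more about the origin of replicates than the heads in each. The p-values therefore set each group difference against the spread between these samples only, and whether they hold for separate crosses is not known.

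The 10 genes spanned a wide range of abundance per length of transcript. Averaged over the 12 libraries, Pu was the most abundant at 232 CPM per kb of exon, followed by t at 167, Ddc at 90.5, speck at 79.0, Vmat at 64.4 and ple at 39.2. The least abundant were e at 23.3, b at 11.1, Catsup at 9.68 and DAT at 7.09 CPM per kb. DAT, which marks dopaminergic neurons, was thus the lowest of the 10 per kb, and Vmat, which other monoamine neurons also use, was 7.23 to 10.9 times as high as DAT per kb in each library. DAT was also the steadiest, with a highest library at 1.39 times its lowest, whereas this ratio was 1.65 for Vmat, 1.90 for speck, 1.92 for Catsup and 1.99 for Ddc. The ratio was 2.21 for b, 2.68 for Pu, 4.09 for t, 4.32 for ple and 10.5 for e. The median over the members was 2.10, against 2.04 over all tested rows.

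Among the synthesis genes, Ddc separated the groups by level. It had 186, 229.8 and 198 CPM in dYEATS2-IR and 174, 172 and 235 CPM in NTC IR-1. It had 298, 307 and 284 CPM in dENL/AF9-IR and 343, 317 and 297 CPM in NTC IR-2. All 6 libraries labelled dENL/AF9-IR or NTC IR-2 were above all 6 labelled dYEATS2-IR or NTC IR-1, and within each of these pairs the groups overlapped. This split was read from the Ddc values, and the share of all rows split in this way was not counted. For each single pair of groups across it, 14.9% to 20.5% of all rows were without overlap in the same direction. Catsup ran the other way, with 19.0, 15.6 and 20.3 CPM in dYEATS2-IR and 20.3, 20.4 and 18.5 CPM in NTC IR-1. It had 12.5, 13.2 and 19.96 CPM in dENL/AF9-IR and 13.8, 13.0 and 10.7 CPM in NTC IR-2. The 3 libraries of NTC IR-2 lay below all 6 libraries labelled dYEATS2-IR or NTC IR-1, while dENL/AF9-IR overlapped every other group, and reached the level of dYEATS2-IR and NTC IR-1 through its replicate 3. Of all rows, 14.6% were lower in NTC IR-2 than in dYEATS2-IR without overlap, and 16.9% lower than in NTC IR-1.

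The remaining synthesis genes varied more within groups. ple had 157, 141 and 90.4 CPM in dYEATS2-IR and 102, 115 and 181 CPM in NTC IR-1. It had 153, 139 and 119 CPM in dENL/AF9-IR and 101, 98.8 and 391 CPM in NTC IR-2. All 4 groups of ple overlapped, and NTC IR-2 held nearly its lowest libraries together with its highest. Pu had 474, 503 and 317 CPM in dYEATS2-IR and 292, 315 and 538 CPM in NTC IR-1. It had 626, 613 and 477 CPM in dENL/AF9-IR and 564, 493 and 782 CPM in NTC IR-2. The Pu libraries of all 4 groups overlapped too.

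Of the transporters, Vmat had 479, 541 and 392 CPM in dYEATS2-IR and 449.8, 474 and 497 CPM in NTC IR-1. It had 647, 594 and 497 CPM in dENL/AF9-IR and 541, 624 and 548 CPM in NTC IR-2. Each knockdown overlapped its control, and the only separation was between the controls, where NTC IR-2 was above NTC IR-1. DAT had 17.9, 22.9 and 17.6 CPM in dYEATS2-IR and 22.5, 24.5 and 23.4 CPM in NTC IR-1. It had 22.3, 23.8 and 18.6 CPM in dENL/AF9-IR and 21.6, 22.1 and 21.4 CPM in NTC IR-2. The 2 lowest DAT libraries were in dYEATS2-IR, but its replicate 2 lay within the range of NTC IR-1.

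Of the turnover genes, t was highest in dYEATS2-IR. It had 617, 507 and 469.9 CPM in dYEATS2-IR and 155, 151 and 385 CPM in NTC IR-1. It had 246, 278 and 336 CPM in dENL/AF9-IR and 354, 225 and 228 CPM in NTC IR-2. All 3 libraries of dYEATS2-IR lay above the other 9, and NTC IR-1 replicate 3 stood well above its group's other libraries. Against each other group alone, 14.6% to 16.5% of all rows were higher in dYEATS2-IR without overlap. The share of all rows with the dYEATS2-IR libraries above all other 9 was not counted. The e gene had 59.1, 61.3 and 33.1 CPM in dYEATS2-IR and 82.6, 69.7 and 58.8 CPM in NTC IR-1. It had 83.8, 46.7 and 33.7 CPM in dENL/AF9-IR and 26.7, 41.7 and 281 CPM in NTC IR-2. Both the lowest and the highest library of e were in NTC IR-2. The b gene had 19.4 to 25.2 CPM in dYEATS2-IR, 19.6 to 22.5 in NTC IR-1, 20.7 to 24.7 in dENL/AF9-IR and 19.6 to 42.9 in NTC IR-2, with its highest library in NTC IR-2. The speck gene had 111 to 164 CPM in dYEATS2-IR, 105 to 181 in NTC IR-1, 160.4 to 170.1 in dENL/AF9-IR and 132 to 199.8 in NTC IR-2. For b and speck all groups overlapped.

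**Figure D1:**
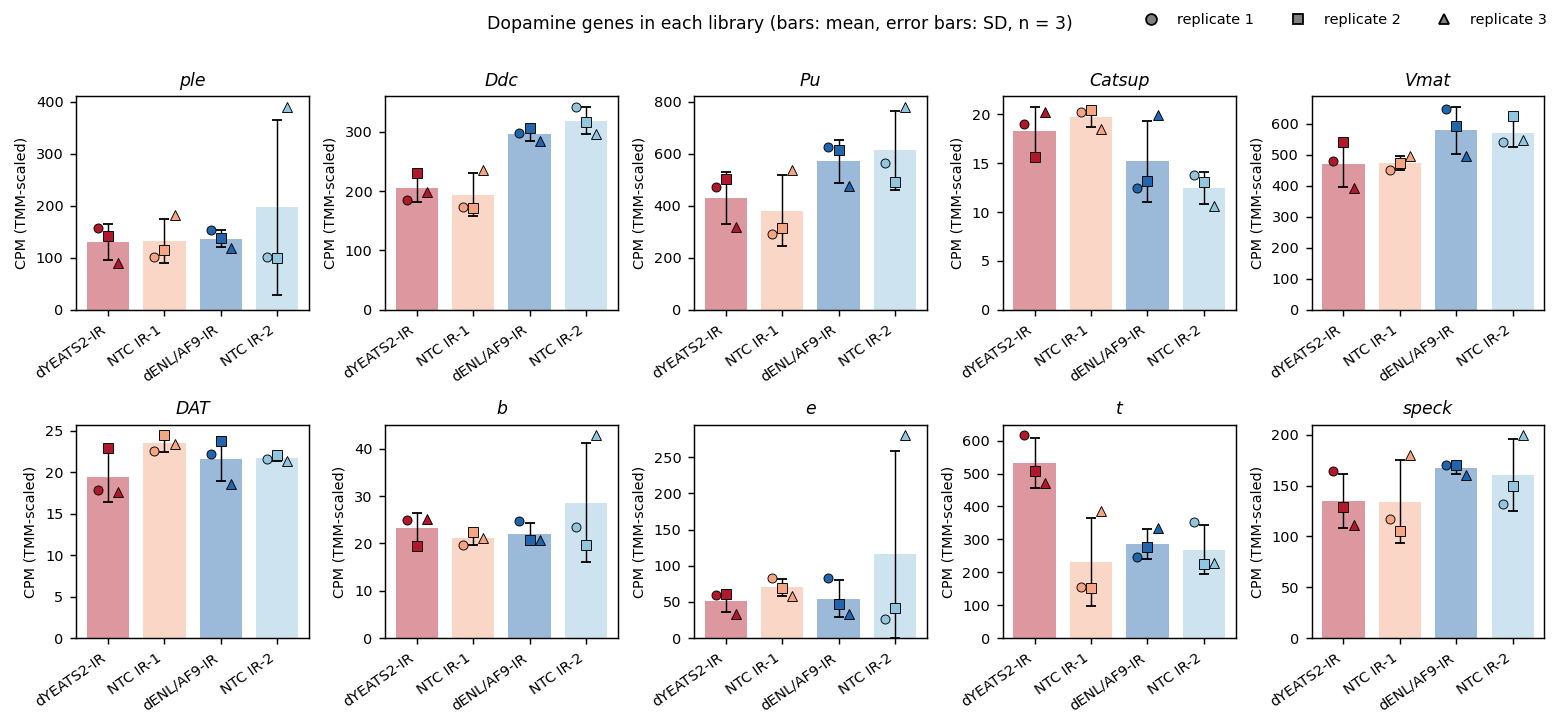
CPM of each of the 10 genes in every library, with bars for group means, error bars for SD (n = 3) and point shapes for replicate numbers. The lower error bar of e in NTC IR-2 is drawn only to 0, since its SD (143) exceeds its mean (116). Ddc is higher in the 6 libraries labelled dENL/AF9-IR or NTC IR-2, t is highest in dYEATS2-IR, and ple and e have 1 high library in NTC IR-2.

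In the libraries labelled dYEATS2-IR, none of the 10 genes passed the test against NTC IR-1. The call rate over all tested rows in this comparison was 4.77%, so 0 of 10 is near that background. The gene furthest from 0 was t, which was 1.21 higher on the log2 scale (SE 0.332, 95% interval 0.48 to 1.93) with an FDR of 0.0630. It was the only member whose groups did not overlap, in a comparison where 15.0% of all rows were higher without overlap and 14.3% lower. One control library decided the call of t: without NTC IR-1 replicate 3 its change was 1.80 with an FDR of 0.00137, and without NTC IR-1 replicate 1 it was 0.96 with an FDR of 0.235. DESeq2's Wald test also put t past the threshold, at 1.19 with an FDR of 0.00639. The dYEATS2-IR libraries had the lowest mitochondrial shares, and with mitochondrial and transposable element rows removed t stood at 1.17 (FDR 0.0873) and 281 rows were called instead of 604. If the libraries are named as in the normalized table, t stands at 0.09 in this comparison (FDR 1).

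For the synthesis genes the same comparison gave small estimates. Ddc differed by 0.08 (95% interval -0.21 to 0.36, FDR 0.784), so a change beyond 1.29-fold in either direction lies outside its interval. ple differed by -0.04, but its interval of -1.05 to 0.98 takes in levels from 0.482 to 1.97 times those of NTC IR-1. Pu differed by 0.18 (-0.39 to 0.74) and Catsup by -0.11 (-0.50 to 0.28). Among the transporters, Vmat differed by -0.01 (-0.30 to 0.28), and DAT was 0.27 lower on the log2 scale at an unadjusted p of 0.0465 and an FDR of 0.224. Of the other turnover genes, e differed by -0.46 (-1.99 to 1.08), b by 0.14 (-0.39 to 0.66) and speck by 0.01 (-0.46 to 0.48). Of the 10 estimates, 5 were above 0, and the median was -0.00, against -0.02 over all rows. At an unadjusted p below 0.05, 2 of the 10 passed (t and DAT), against 21.5% of all rows.

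The libraries labelled dENL/AF9-IR likewise had no call among the 10 genes against NTC IR-2, nor in any other row (0% called). At an unadjusted p below 0.05, 661 of all rows passed (5.22%) and none of the members did, and DESeq2's Wald test called 30 rows, none of them a member. No member was without overlap, where 4.59% of all rows were higher without it and 4.63% lower. Ddc differed by -0.11 (95% interval -0.39 to 0.18), Vmat by 0.02 (-0.27 to 0.31), DAT by -0.01 (-0.28 to 0.26), speck by 0.06 (-0.41 to 0.53) and Catsup by 0.28 (-0.11 to 0.68), all at an FDR of 1. Pu differed by -0.10 (-0.67 to 0.47) and t by 0.09 (-0.63 to 0.81). The intervals of e, at -1.09 (-2.64 to 0.45), and ple, at -0.52 (-1.54 to 0.49), were the widest of the 10, and b differed by -0.38 (-0.90 to 0.14). Of the 10 estimates, 4 were above 0, with a median of -0.06 over the members and -0.00 over all rows.

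The effects of the 2 hairpins, each against its own control, were set against each other in 1 test. None of the 10 genes passed it, where 0.932% of all rows did. The largest difference was for t, at 1.12 (SE 0.464, FDR 0.307), and t passed once NTC IR-1 replicate 3 was left out (1.71, FDR 0.0169). For Ddc the difference of effects was 0.18 (-0.22 to 0.59), for Vmat -0.03 (-0.44 to 0.38), for DAT -0.26 (-0.64 to 0.12) and for Catsup -0.39 (-0.95 to 0.17). For ple and e the intervals ran from -0.95 to 1.93 and from -1.53 to 2.80, so large differences between the hairpins lie inside them.

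**Figure D2:**
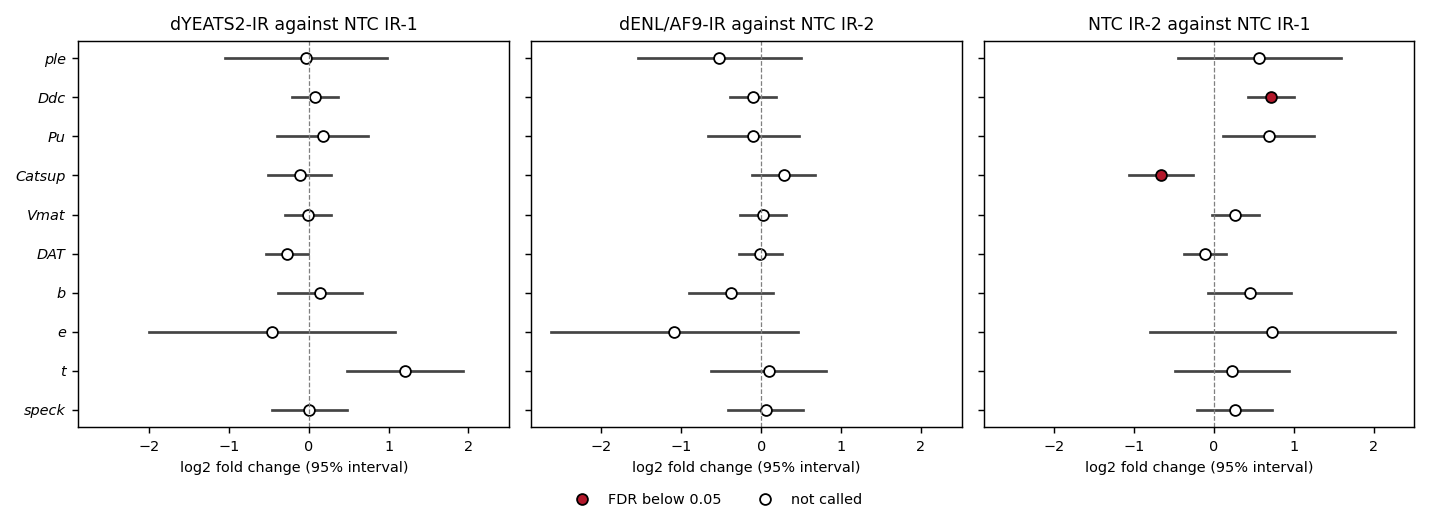
Log2 fold change of each gene (point) with its 95% interval (line) in dYEATS2-IR against NTC IR-1, dENL/AF9-IR against NTC IR-2 and NTC IR-2 against NTC IR-1, with filled points for an FDR below 0.05. The only filled points are Ddc (0.72) and Catsup (-0.66) between the controls, and the intervals of e and ple are the widest.

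The libraries labelled as the controls, with hairpins that have no fly target, also differed from each other. In NTC IR-2 against NTC IR-1, Ddc rose and Catsup fell, so 2 of 10 members were called, against 19.5% of all rows. Ddc averaged 319 ± 22.99 CPM in NTC IR-2 and 194 ± 36.0 CPM in NTC IR-1 (SD, n = 3 each), a log2 fold change of 0.72 (SE 0.131, 95% interval 0.43 to 1.01, FDR 0.00543). Its call held with any 1 library left out, at 0.62 to 0.88. Catsup averaged 12.5 ± 1.65 CPM in NTC IR-2 and 19.8 ± 1.05 CPM in NTC IR-1 (SD, n = 3 each), a log2 fold change of -0.66 (SE 0.181, FDR 0.0273). Catsup kept its direction but not its call without NTC IR-1 replicate 1 (FDR 0.0809), NTC IR-1 replicate 2 (FDR 0.0760), NTC IR-2 replicate 2 (FDR 0.0673) or NTC IR-2 replicate 3 (FDR 0.0888).

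Pu was 0.68 higher in NTC IR-2 than in NTC IR-1 on the log2 scale without passing the adjusted test (SE 0.260, FDR 0.0865). It passed without NTC IR-1 replicate 3, at 1.02 with an FDR of 0.0131, and in DESeq2's Wald test, at an FDR of 0.0483. Vmat differed by 0.27 (-0.02 to 0.56) and DAT by -0.11 (-0.38 to 0.15), both without overlap between the libraries. Together with Ddc and Catsup, 4 members were without overlap, 2 higher and 2 lower, against 16.6% and 16.9% of all rows. ple differed by 0.57 (-0.45 to 1.59), b by 0.45 (-0.08 to 0.97), e by 0.73 (-0.81 to 2.26) and speck by 0.26 (-0.21 to 0.73). The t gene differed by 0.23 (-0.49 to 0.94), and by 0.82 (FDR 0.0215) without NTC IR-1 replicate 3. Of the 10 estimates, 8 were above 0, with a median of 0.36 over the members and -0.04 over all rows.

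The remaining pairs of groups share libraries with the comparisons above, so they serve only to order the levels. Ddc was lower in dYEATS2-IR than in NTC IR-2 (-0.64, FDR 0.0140) and higher in dENL/AF9-IR than in NTC IR-1 (0.61, FDR 0.0129). It was lower in dYEATS2-IR than in dENL/AF9-IR (-0.53, FDR 0.0416). No other member was called in these pairs, where 9.17%, 15.6% and 4.94% of all rows were. Ddc averaged 204 CPM in dYEATS2-IR and 194 in NTC IR-1, and 296 in dENL/AF9-IR and 319 in NTC IR-2. The descending order was therefore NTC IR-2, dENL/AF9-IR, dYEATS2-IR and NTC IR-1, and of the steps between neighbours only that between dYEATS2-IR and dENL/AF9-IR passed the test. Leaving out dYEATS2-IR replicate 1 or 3 took the call away against NTC IR-2 (FDR 0.0872 and 0.0724), and NTC IR-1 replicate 1 or 2 or dENL/AF9-IR replicate 2 did so for dENL/AF9-IR against NTC IR-1 (FDR 0.0836, 0.0742 and 0.0551). The call against dENL/AF9-IR held in only 4 of the 12 fits that leave out 1 library. The t gene was 0.98 higher in dYEATS2-IR than in NTC IR-2 (FDR 0.0848) and 0.89 higher than in dENL/AF9-IR (FDR 0.142). Its groups did not overlap in either pair, where 14.6% and 16.5% of all rows were higher without overlap. Both passed once NTC IR-1 replicate 3 was out of the fit (FDR 0.0111 and 0.0228). That library is in none of the groups compared there and bears on them only through the shared fit. Catsup was 0.55 higher in dYEATS2-IR than in NTC IR-2, also without overlap (FDR 0.0799), and without dENL/AF9-IR replicate 3 its FDR was 0.0287. That library too is in neither group of this pair and bears on it only through the shared fit. As part of a compared group, dENL/AF9-IR replicate 3 decided Catsup in dENL/AF9-IR against NTC IR-1. The change there was -0.38 with it (FDR 0.166) and -0.62 without it (FDR 0.0215). Likewise NTC IR-1 replicate 3 decided Pu, at 0.58 with it (FDR 0.144) and 0.92 without it (FDR 0.0215), and t, at 0.32 with it (FDR 0.531) and 0.91 without it (FDR 0.0154). In the test of any difference among the 4 groups, only Ddc passed (FDR 0.00635), where 19.6% of all rows did.

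Several members were set by NTC IR-2 replicate 3. In that library e was 8.22 times the mean of the other NTC IR-2 libraries, ple 3.91 times, b 2.00 times, Pu 1.48 times and speck 1.42 times. Of all rows, 0.473% had a ratio at least as high as that of e, 1.63% as that of ple and 5.77% as that of b, and the median row had 0.969. Ddc (0.899), Vmat (0.941) and DAT (0.978) were near or below 1 in the same library, and Catsup (0.794) and t (0.788) were lower. Within that library, ple per kb was 0.968 times Ddc, against 0.217 to 0.622 in the other 11, and 1.52 times Vmat, against 0.339 to 0.778. The e gene per kb was 0.774 times t there, against 0.0442 to 0.336 elsewhere.

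Leaving out NTC IR-2 replicate 3 turned several directions. For dENL/AF9-IR against NTC IR-2, ple then stood at 0.46 instead of -0.52, e at 0.68 instead of -1.09, b at 0.04 instead of -0.38 and Pu at 0.12 instead of -0.10, none of them called. In NTC IR-2 against NTC IR-1, ple then stood at -0.41 instead of 0.57 and e at -1.04 instead of 0.73, while b stood at 0.03 and speck at 0.07. The Ddc change between the controls was 0.77 without that library. The haemocyte marker sum was lowest in that library (33.4 CPM, against 44.0 to 64.2 in the other 11), and its muscle and glial sums lay within or just above the range of the rest, at 5631 and 1726 CPM. The part of these cells in its ple and e levels was not tested.

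**Figure D3:**
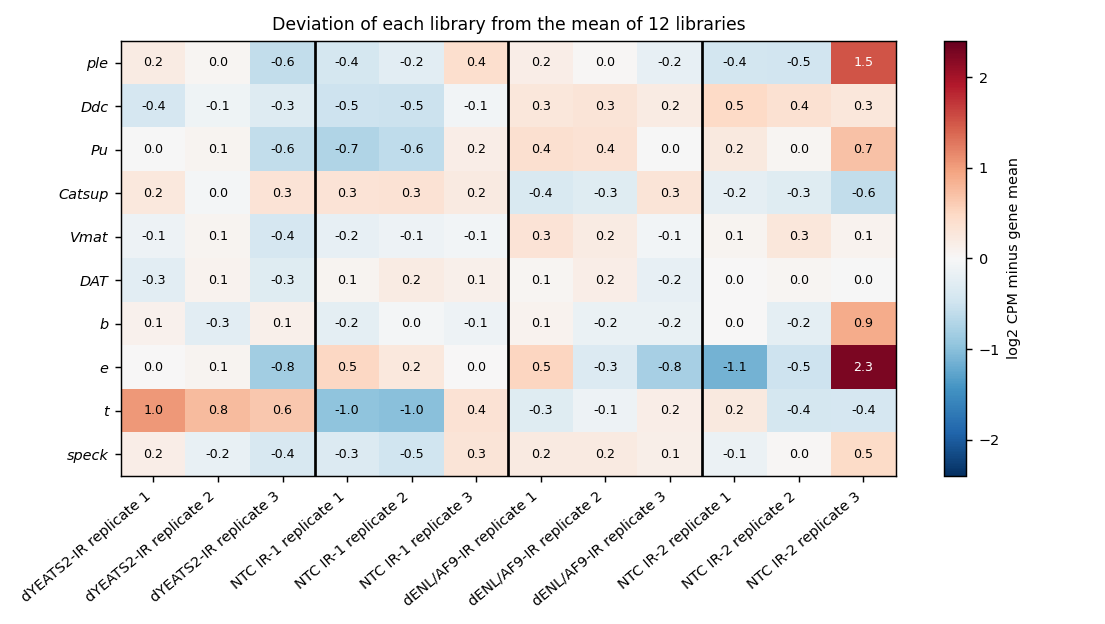
Log2 CPM of each gene in each library minus that gene's mean over the 12 libraries, with red above and blue below the mean and lines between groups. NTC IR-2 replicate 3 stands out for e (2.3) and ple (1.5), the t row is highest in dYEATS2-IR, and the Ddc row is positive in the 6 libraries labelled dENL/AF9-IR or NTC IR-2.

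Between the controls, neuronal markers moved with Ddc and opposite to Catsup, while DAT did not pass the test (-0.11, FDR 0.546). The summed level of 8 neuronal markers (nSyb, elav, brp, Syt1, Syx1A, para, Rbp9 and fne) was between 4849 and 5837 CPM in dYEATS2-IR, 4020 to 5106 in NTC IR-1, 6794 to 7569 in dENL/AF9-IR and 6559 to 8155 in NTC IR-2, with no marker at 0 in any library. In NTC IR-2 against NTC IR-1, 5 of the 8 were called higher and none lower, against 10.3% and 9.16% of all rows. As a share of that sum, Ddc was 3.64% to 4.08% in dYEATS2-IR, 3.79% to 4.61% in NTC IR-1, 3.94% to 4.18% in dENL/AF9-IR and 3.89% to 5.22% in NTC IR-2. On this scale the Ddc groups overlapped, whereas DAT, at 0.271% to 0.330% of the sum in NTC IR-2 and 0.458% to 0.560% in NTC IR-1, and Vmat, at 7.61% to 8.24% in NTC IR-2 and 9.74% to 11.2% in NTC IR-1, did not. Catsup did not overlap either, at 0.148% to 0.211% of the sum in NTC IR-2 and 0.363% to 0.504% in NTC IR-1. In dYEATS2-IR, DAT (0.350% to 0.392%) and Vmat (8.09% to 9.39%) also lay below NTC IR-1, while Catsup (0.267% to 0.418%) overlapped it. In dENL/AF9-IR, DAT, Vmat and Catsup all lay below NTC IR-1. The sum itself was higher in NTC IR-2 than in NTC IR-1 without overlap, so a gene of steady level is set apart on this scale. The share of all rows set apart in this way was not counted. In such bulk libraries, fewer cells of a type and less RNA per cell cannot be told apart.

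The summed level of 11 photoreceptor markers (among them ninaE, trp, norpA and Arr2) was, like t, higher in dYEATS2-IR than in NTC IR-1. It was 47807 to 54484 CPM in dYEATS2-IR, against 26673 to 38738 in NTC IR-1, and 36414 to 53607 in dENL/AF9-IR and 33088 to 44685 in NTC IR-2. The sum did not follow t in every library: dENL/AF9-IR replicate 3 had 53607 CPM with t at 336 CPM. The largest part of it was ninaE, which averaged 26789 CPM in dYEATS2-IR. In dYEATS2-IR against NTC IR-1, 5 of the 11 were called higher and none lower, against 2.42% and 2.35% of all rows. By estimate 10 of the 11 were higher, and Rh5 was lower (73.9 against 94.5 CPM on average). As a share of this sum, t was 0.958% to 1.13% in dYEATS2-IR and 0.566% to 0.993% in NTC IR-1, so these groups overlapped, while in dENL/AF9-IR (0.627% to 0.689%) and NTC IR-2 (0.527% to 0.793%) it was below dYEATS2-IR. The fat body and yolk sum was 372 to 509.9 CPM in dYEATS2-IR, against 2676 to 3199 in NTC IR-1, and 410 to 1051 in dENL/AF9-IR and 331 to 490.4 in NTC IR-2. Yp1 was at 0 in 3 libraries, none of them of NTC IR-1, and high in that group as given above. Glial markers summed to 1167 to 1516 CPM in dYEATS2-IR, 1153 to 1631 in NTC IR-1, 1507 to 1607 in dENL/AF9-IR and 1327 to 1726 in NTC IR-2. Muscle markers summed to 4394 to 6221, 4417 to 6666, 4428 to 5539.6 and 4559 to 5631 CPM in the same order of groups. The glial sums hide differences of single markers. In NTC IR-2 against NTC IR-1, 3 of the 8 glial markers were called lower and none higher, against 9.16% and 10.3% of all rows. In dYEATS2-IR against NTC IR-1, 1 of the 8 was called lower and none higher. The part of cell composition in the levels of Ddc and t was not tested.

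**Figure D4:**
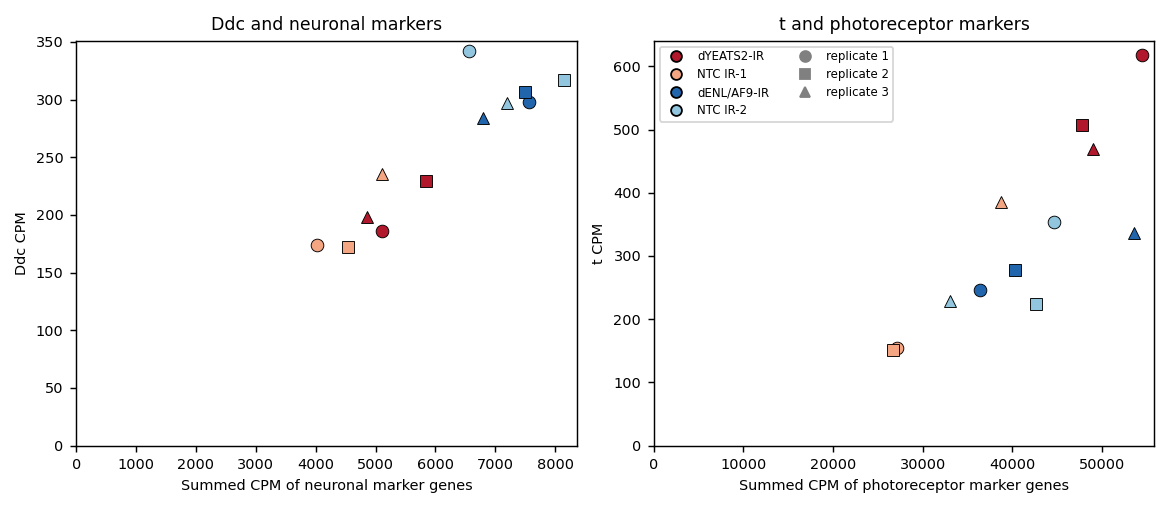
Ddc CPM against the summed CPM of 8 neuronal markers (left) and t CPM against that of 11 photoreceptor markers (right), 1 point per library, with colours for groups and shapes for replicates. The 6 libraries with the most neuronal marker RNA have the most Ddc, and NTC IR-1 replicates 1 and 2 are lowest for both t and photoreceptor markers.

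Likeness of pattern was described by Pearson's r of log2 CPM over the 12 libraries, which fall into 4 groups, among 9005 rows with a mean of at least 100 counts. The row most like Ddc was Spred (r = 0.981, and 0.929 after removing group means), with CG31221 next (0.974). The row most like t was Gbeta76C, the beta subunit of the photoreceptor G protein (0.984, and 0.964 within groups), with Rip11 next (0.971). The row most like Pu was pr (0.954), which encodes the enzyme after Pu in pterin cofactor synthesis, with CG43341 next (0.951). For ple they were CG7079 (0.935) and mol (0.927), for e NijA (0.977) and CG13606 (0.961), and for speck yellow-c (0.952) and an insertion of the transposable element Doc (0.951). For Vmat they were CG14535 (0.970) and Drl-2 (0.948), for Catsup CG2004 (0.967) and CG13670 (0.964), and for DAT CG34384 (0.838) and Obp99a (0.838). Obp99a had only 0 to 9.02 CPM. The likeness of b to Zasp66 (0.906) and CG44085 (0.896) rested on NTC IR-2 replicate 3, since r was 0.589 and 0.474 without it. Without that library r also fell to 0.842 and 0.804 for the rows named for ple, and to 0.940 and 0.916 for those of e.

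Among the members themselves, after removing group means, ple and e moved together most closely (r = 0.857 over 12 libraries), followed by Pu and speck (0.847), and DAT and Catsup moved most oppositely (-0.743). Over the libraries as they stand, ple and e had an r of 0.830, but 0.485 without NTC IR-2 replicate 3, whereas Pu and speck kept 0.822. ple and Ddc, which encode consecutive enzymes, had an r of 0.200, and 0.0496 within groups. All these values share libraries and depth, and are descriptions of these 12 libraries.

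Genes around the pathway were taken from 5 further lists. Of the 5 genes of pterin cofactor synthesis and phenylalanine hydroxylation, none was called in dYEATS2-IR against NTC IR-1. Between the controls, pr rose (0.89, FDR 0.0404) and Hn, phenylalanine hydroxylase, fell (-0.66, FDR 0.0124). pr averaged 223 ± 48.0 CPM in NTC IR-2 and 120.4 ± 27.7 CPM in NTC IR-1 (SD, n = 3 each), and it lost its call when any of 8 libraries was left out, among them NTC IR-1 replicate 1 (0.77, FDR 0.163) and NTC IR-2 replicate 3 (0.71, FDR 0.122). Hn averaged 52.7 ± 2.02 CPM in NTC IR-2 and 83.0 ± 11.2 CPM in NTC IR-1. Its level in dYEATS2-IR, 99.0 ± 4.56 CPM, was above that in NTC IR-2 (0.91, FDR 0.00610).

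Of the 10 genes of histamine recycling and beta-alanine supply, 3 rose in dYEATS2-IR against NTC IR-1 and none fell. Over all rows, 2.42% were called higher there and 2.35% lower. HisCl1, a histamine-gated chloride channel, had 49.5, 52.8 and 47.4 CPM in dYEATS2-IR and 30.8, 35.7 and 33.4 CPM in NTC IR-1 (0.58, SE 0.0867, FDR 0.00413). Hdc, histidine decarboxylase, had 157, 152 and 123 CPM in dYEATS2-IR and 54.5, 54.8 and 105 CPM in NTC IR-1 (1.01, FDR 0.0282). CarT, the carcinine transporter, averaged 74.6 ± 3.15 CPM in dYEATS2-IR and 51.9 ± 1.78 CPM in NTC IR-1 (SD, n = 3 each), a change of 0.52 with an FDR of 0.0316. The groups of each of these genes did not overlap, where 15.0% of all rows were higher without overlap. As for t, the photoreceptor marker sum was higher and the mitochondrial share lower in the same dYEATS2-IR libraries. The calls of Hdc and CarT were lost without any 1 library of dYEATS2-IR, with the FDR reaching 0.134 for Hdc and 0.111 for CarT, and without NTC IR-1 replicate 1 or 2, with the FDR reaching 0.141 and 0.130. CarT was also lost without dENL/AF9-IR replicate 2 (FDR 0.0540) and with mitochondrial and transposable element rows removed (0.48, FDR 0.0598), and Hdc when only the 6 libraries compared were fitted (FDR 0.0985). That of HisCl1 held with any 1 library left out. Between the controls, CarT rose (0.66, FDR 0.00492) and su(r), dihydropyrimidine dehydrogenase of the route from uracil to beta-alanine, fell (-0.98, FDR 0.00331).

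Of the 12 listed cuticle tanning and melanin genes 9 were tested. In dYEATS2-IR against NTC IR-1, 2 of them were called lower, against 2.35% of all rows. The y gene (yellow, needed for black pigment) had 0.176, 0.371 and 0.421 CPM in dYEATS2-IR and 180.1, 188 and 142 CPM in NTC IR-1, a log2 fold change of -9.03 (FDR 8.29e-07). Its level was 31.7, 33.3 and 67.0 CPM in dENL/AF9-IR and 183, 213 and 123 CPM in NTC IR-2. Each group is 1 genotype, so the hairpin and the rest of that genotype cannot be told apart as sources of this difference. The same holds for every other difference between groups given here, that of t included. Neither source was tested. PPO2, a prophenoloxidase of crystal cells, averaged 17.1 ± 2.99 CPM in dYEATS2-IR and 37.2 ± 5.42 CPM in NTC IR-1 (-1.12, FDR 0.00761). Between the controls PPO1, another prophenoloxidase, fell (-1.28, FDR 0.0129), with an FDR of 0.0664 when only the 6 libraries compared were fitted. PPO1 and PPO2 are also among the haemocyte markers, whose sum was 44.1 to 45.7 CPM in dYEATS2-IR, 59.8 to 64.2 in NTC IR-1, 53.4 to 57.0 in dENL/AF9-IR and 33.4 to 57.9 in NTC IR-2.

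The 4 dopamine receptor genes, Dop1R1, Dop1R2, Dop2R and DopEcR, did not pass in either knockdown. In dYEATS2-IR against NTC IR-1 they differed by -0.02, 0.17, -0.07 and 0.32, and for dENL/AF9-IR against NTC IR-2 by -0.11, -0.12, -0.00 and 0.05. In NTC IR-2 against NTC IR-1, 3 of the 4 rose, where 10.3% of all rows were called higher. DopEcR, which also binds ecdysone, had 474, 706 and 539.6 CPM in NTC IR-2 and 344, 344 and 351 CPM in NTC IR-1 (0.73, SE 0.134, FDR 0.00558). Dop1R2 (0.51, FDR 0.0224) and Dop2R (0.34, FDR 0.0437) also passed. Neither passed without NTC IR-2 replicate 2 (FDR 0.0837 and 0.109), NTC IR-1 replicate 1 (0.0944 and 0.124) or NTC IR-1 replicate 2 (0.0989 and 0.0949), and Dop2R lost its call without several other libraries too, whereas Dop1R1 was 0.36 higher with an FDR of 0.111. The neuronal marker sum, like Ddc, was higher in the same libraries of NTC IR-2 than in NTC IR-1. Of the 6 tested genes for other monoamines, Tbh, which makes octopamine, rose between the controls (0.39, FDR 0.0177). Leaving out NTC IR-1 replicate 1, NTC IR-1 replicate 2 or NTC IR-2 replicate 2 put Tbh at an FDR of 0.0735, 0.0510 or 0.0637. None of the 6 was called in either knockdown. No gene of the 5 lists was called when dENL/AF9-IR was set against NTC IR-2.

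**Figure D5:**
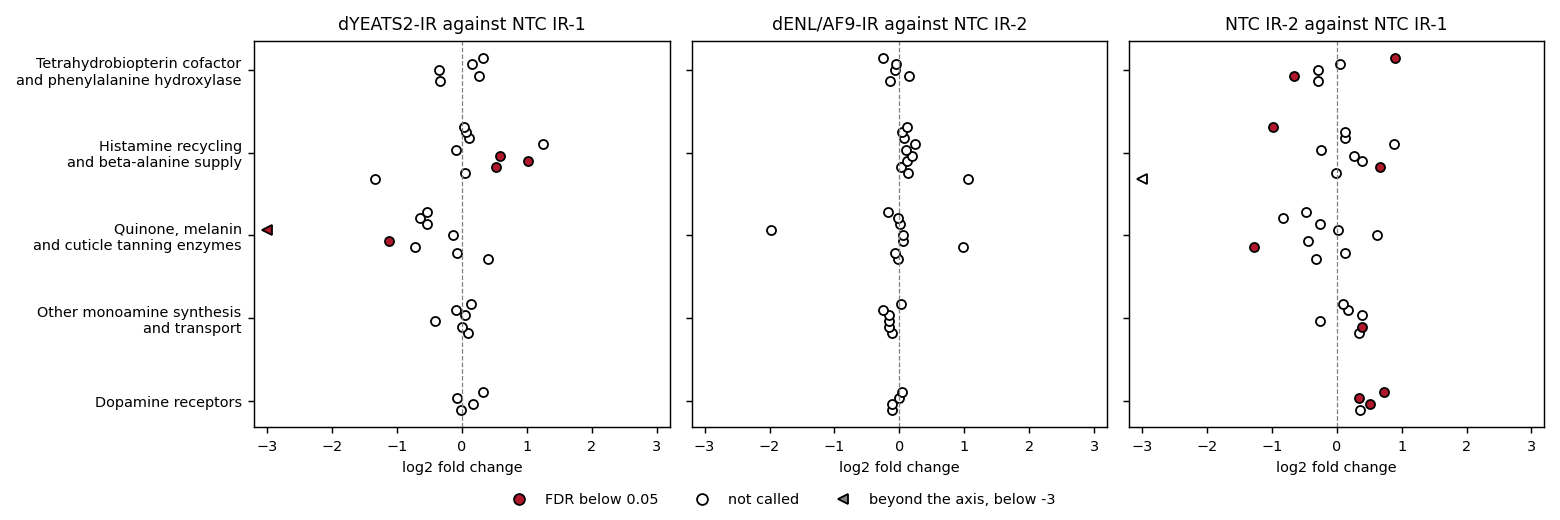
Log2 fold change of each tested gene of the 5 surrounding lists in 3 comparisons, with filled symbols for an FDR below 0.05 and triangles for values beyond the axis. The dYEATS2-IR panel has filled points for Hdc, CarT and HisCl1 above 0 and for PPO2 and y below 0, the dENL/AF9-IR panel has none, and in the panel of NTC IR-2 against NTC IR-1 3 of 4 dopamine receptors are filled above 0.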

How the data were processed

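Per the labels' protocols, RNA of 50 male heads per replicate was sequenced from strand-specific mRNA libraries. The authors deposited raw counts per gene or transposable element insertion, and a normalized table whose values are a signal on the count scale, counts divided by a factor per library. The normalized table was used only to compare group names. Per the submitters' processing notes, FastQC 0.12.0, Trim Galore 0.6.5, HISAT2, SAMtools, UMI-tools, Picard and DESeq2 were used, with the builds BDGP6 and dm6. The counting program and its handling of strand and of reads with several matches are not given in the sources used here. The count table's 12 columns were matched by name, and 23535 of its 23793 symbols were found in BDGP6.54.

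The tests were run with edgeR 4.0.16 in R 4.3.3: filterByExpr over the 4 groups, TMM scaling (factors 0.859 to 1.16), and 1 quasi-likelihood fit of all 12 libraries with a mean per group (8 residual degrees of freedom). Standard errors were taken as |log2 fold change| over the root of the F statistic, and intervals are 95% intervals from the t distribution. Correlations used log2 CPM with a prior count of 2. The pipeline was tested on simulated counts. Alternatives were DESeq2 1.42.0 (size factors, Wald or likelihood ratio test), other filters, fewer libraries, a replicate block, mitochondrial and transposable element rows removed, the other table's names, and each library left out.

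Members, gene lists and tests were chosen with earlier results of these data known. All members were described. Other listed genes were named where called against the paired control or between controls, at most the 4 largest changes per list, and dopamine receptors always. The 2 most correlated rows were named for each member. Sequences were not used here.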

Additional observations from a re-analysis of the deposited data

How the results depend on the processing

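The number of members called changed with the processing in several comparisons, and the cause was not tested. With DESeq2's Wald test it was 1 in dYEATS2-IR against NTC IR-1 (0 with edgeR) and 3 in dYEATS2-IR against NTC IR-2 (1 with edgeR), and with its likelihood ratio test 3 members differed among the 4 groups (1 with edgeR). Fitting only the 6 libraries compared gave 2 in dYEATS2-IR against NTC IR-2 and 2 in dYEATS2-IR against dENL/AF9-IR (1 with all libraries), and in the second of these DESeq2 size factors or no filter beyond 1 count gave 0. Leaving out 1 library gave 0 to 1 members in dYEATS2-IR against NTC IR-1, 1 to 4 in NTC IR-2 against NTC IR-1, 0 to 2 in dYEATS2-IR against NTC IR-2, 0 to 3 in dENL/AF9-IR against NTC IR-1, 0 to 2 in dYEATS2-IR against dENL/AF9-IR, 0 to 1 for the difference between the hairpins and 1 to 3 among the 4 groups. Over all rows, calls ranged from 153 to 1167 in dYEATS2-IR against NTC IR-1 (604 as reported), from 0 to 30 for dENL/AF9-IR against NTC IR-2 (0) from 940 to 3120 in NTC IR-2 against NTC IR-1 (2467), from 331 to 1876 in dYEATS2-IR against NTC IR-2 (1161), from 438 to 2694 in dENL/AF9-IR against NTC IR-1 (1974), from 109 to 1217 in dYEATS2-IR against dENL/AF9-IR (625), from 55 to 399 for the difference between the hairpins (118) and from 1145 to 3846 among the 4 groups (2478), other group names aside. Under the normalized table's group names, 1 member was called in NTC IR-2 against NTC IR-1 (2 as reported) and 2 in dENL/AF9-IR against NTC IR-1 (1), and directions turned: Ddc stood at -0.64 and Catsup at 0.55 in NTC IR-2 against NTC IR-1, Ddc at 0.53 in dYEATS2-IR against NTC IR-2, Ddc at -0.72 and Catsup at 0.66 in dENL/AF9-IR against NTC IR-1, and Ddc at 0.61 in dYEATS2-IR against dENL/AF9-IR. Under those names the knockdown comparisons exchange too: t stood at 0.09 instead of 1.21 in dYEATS2-IR against NTC IR-1 and at -1.21 instead of 0.09 for dENL/AF9-IR against NTC IR-2. All 4 of these values of t were uncalled. Of 1390 recomputed member changes, 101 changed sign with neither value called and 6 with either value called. Besides these, 20 calls were lost and 16 gained. A call could be lost only where Ddc or Catsup was called as reported, so 1390 is not the base for the calls lost. Counts were lowest for Catsup (403) and DAT (610), while in dYEATS2-IR against NTC IR-1 the standard errors were 0.700 for e and 0.464 for ple, against 0.122 for DAT.

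Replicate numbers did not pair the libraries. Same-numbered libraries of different groups had correlations of -0.226 to 0.206 in their deviations from group means, and 1 of 12 libraries correlated best with its own number. With the replicate block, calls over all rows were 334 in dYEATS2-IR against NTC IR-1 and 1942 in NTC IR-2 against NTC IR-1. Among the members it changed only Ddc in dYEATS2-IR against dENL/AF9-IR, which was no longer called (-0.54, FDR 0.0801), leaving 0 members there.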
